A study of Mus musculus with 12 samples.

Results

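The livers with active AMPK were 3 L-iAMPK livers from mice given doxycycline (doxy), and each of their genes was set against 9 control livers in which the labels record no AMPK activation. A gene was placed above the controls when all 3 active libraries exceeded every one of the 9 control libraries, and below them when all 3 were lower than every control. Of 24453 genes in the deposited table, 12587 reached 0.5 FPKM (fragments per kilobase of transcript, scaled to library size) in at least 3 of the 12 libraries and were tested. Among these, 1244 genes lay above all controls, 878 lay below, and 10465 overlapped. The levels that sorted the genes also entered the tests, so the sorting is a description.

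All 12 libraries were stranded mRNA sequencing of flash-frozen liver from C57Bl/6J mice kept for 8 weeks on a high-fat diet (HFD) with 45% of calories from fat. The active group, L-iAMPK HFD+doxy, was homozygous for ColA-AMPKa1(312) and for R26-rtTA, carried Albumin-Cre, whose promoter is active in hepatocytes, and received doxy. The controls were 3 groups of 3 libraries. The iAMPK HFD+doxy mice lacked Albumin-Cre and received doxy, the L-iAMPK HFD mice carried Albumin-Cre and received none, and the iAMPK HFD mice had neither. All 4 groups carried the inducible AMPKa1 transgene, the rtTA activator and the diet. The labels give no age or sex, and number the livers of a group without saying that they are separate animals, so p-values measure the spread between these libraries. Depth was 13569437 to 20696899 recovered reads in the 11 libraries whose reads were used. The Y-linked gene Ddx3y lay between 14.3 and 16.9 FPKM in active livers and between 10.8 and 13.3 FPKM in the controls, while Xist reached no more than 0.058 FPKM in any library.

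AMP-activated protein kinase (AMPK) is a heterotrimer of a catalytic α, a scaffolding β and a regulatory γ subunit. It senses a fall in cellular energy and, once phosphorylated, restrains ATP-consuming synthesis of fatty acids and cholesterol while favouring fatty acid oxidation. In liver it phosphorylates acetyl-CoA carboxylase and HMG-CoA reductase, acts on transcription factors and coactivators of lipid and glucose metabolism, and can start autophagy through ULK1. These acts of the kinase are on proteins, which RNA levels do not show.

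In the contrast of active livers with the mean of the 3 control groups (limma, adjusted p under 0.05), 1719 genes were higher (13.7%) and 1417 were lower (11.3%). The genes that lay above all controls were 9.88% of those tested and the genes below were 6.98%. Of the 1244 genes above, 1148 were called higher (9.12% of genes tested) and 96 were not called. Of the 878 below, 818 were called lower (6.5% of genes tested) and 60 were not. A further 571 genes called higher and 599 called lower had overlapping libraries. Among the libraries, leaving out an active one moved the calls most: 933 were higher and 721 lower without replicate 1, 1130 and 869 without replicate 2, and 1071 and 769 without replicate 3.

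The direction of the split depended on the scaling between libraries. Median-ratio scaling was used, with which 54.8% of calls were higher. With FPKM as deposited, 795 genes were called higher and 2293 lower, so 25.7% of calls were higher, and the median of all genes shifted by -0.10 on the log2 scale. The genes above and below all controls then numbered 529 and 1541. Quantile normalization gave 1740 higher and 1346 lower. Differences below are therefore relative to a scaling under which the median gene moved by 0.01 on the log2 scale.

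Most of the distances were small. The gap, taken as the distance between the nearest active and nearest control library in log2(FPKM + 0.5), had a median of 0.0878 for genes above and 0.101 for genes below. A gap of at least 0.5 was found for 55 genes above and 65 below, and a gap of at least 2 for 5 above and 4 below. The median log2 difference was 0.35 for genes above and -0.46 for genes below, and it reached 1 or more in size for 68 and 127 genes. Since 0.5 was added before taking logs, these differences understate the change of genes with low FPKM. Each log2 difference below is on this scale and is given ± its standard error.

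**Figure D1:**
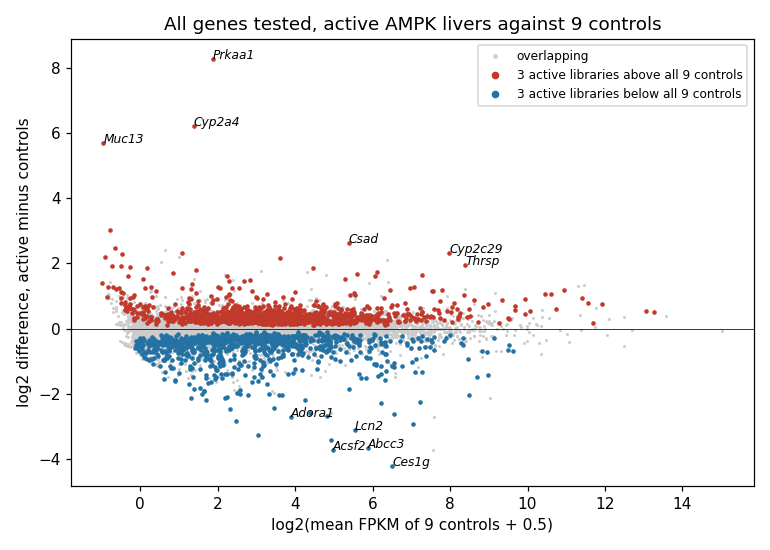
Log2 difference between 3 active AMPK livers and 9 controls (vertical axis) against the mean level of the controls as log2(FPKM + 0.5) (horizontal axis), 1 point per tested gene. Red points are the 1244 genes above all controls, blue points the 878 below, and grey points the 10465 that overlap; most coloured points lie within 1 log2 unit of 0, and Prkaa1 stands highest at 8.28.

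The catalytic α1 subunit gene Prkaa1 (chromosome 15, 5143861 to 5181899, mm10) checks the labelled α1 transgene at the level of RNA, not the activity of the kinase. It stood at 1338, 1025 and 1047 FPKM in active livers, against 2.66 to 4.16 FPKM (median 3.01) in controls. The active libraries were separated from the controls by a gap of 7.78 log2 units, with log2 difference 8.28 ± 0.11, limma adjusted p = 2.44e-12, and FPKM per gene does not divide transgene from endogenous transcripts. The differences from iAMPK HFD+doxy, L-iAMPK HFD and iAMPK HFD were 8.41, 8.22 and 8.20, with the same 3 active libraries in each.

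The other AMPK subunit genes moved far less. Prkaa2, the α2 catalytic subunit, had 13.2, 11.6 and 13.1 FPKM in active livers, against 6.75 to 8.82 FPKM (median 7.84) in controls. All active values exceeded the highest control (log2 difference 0.64 ± 0.08, limma adjusted p = 0.000432). Prkab1, the β1 scaffold, was at 13.8, 19.2 and 13.5 FPKM in active livers, against 10.1 to 13 FPKM (median 11) in controls, with its lowest active library just above the controls (log2 difference 0.43 ± 0.09, limma adjusted p = 0.00803). The γ1 gene Prkag1 was also higher, at 24.4, 26.1 and 23.6 FPKM in active livers, against 17.8 to 22 FPKM (median 20.4) in controls (log2 difference 0.28 ± 0.06, limma adjusted p = 0.00811).

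Prkag2, the γ2 subunit, was lower, with 8.13, 7.8 and 7.61 FPKM in active livers, against 8.57 to 10.3 FPKM (median 9.19) in controls. Its groups did not overlap (log2 difference -0.23 ± 0.05, limma adjusted p = 0.00915), but without active replicate 3 the adjusted p was 0.0514. Prkab2 overlapped, at 1.04, 1.06 and 1.02 FPKM in active livers, against 0.679 to 1.44 FPKM (median 1.05) in controls (log2 difference 0.03 ± 0.11, limma adjusted p = 0.873), and its sign changed with the scaling. Camkk2, a kinase that phosphorylates AMPK in response to calcium, had 3.28, 3.6 and 2.69 FPKM in active livers, against 1.64 to 2.17 FPKM (median 2.02) in controls (log2 difference 0.59 ± 0.09, limma adjusted p = 0.00104). Of 10 tested genes for AMPK subunits and upstream kinases, 6 were higher and 1 lower, 5 lying above all controls and 1 below. Prkaa1, the gene of the labelled transgene, is among those higher and above. Over all genes tested, 13.7% were called higher and 11.3% lower, while 9.88% lay above all controls and 6.98% below.

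After Prkaa1, the widest gap above the controls belonged to Muc13 (chromosome 16, 33794037 to 33819927), which encodes a transmembrane mucin of epithelial surfaces. It had 25.7, 33.4 and 21.7 FPKM in active livers, against 0 to 0.06999 FPKM (median 0.0138) in controls. The control libraries were at or near 0 and all active libraries were well above them (log2 difference 5.70 ± 0.11). On the other side the widest gap belonged to Acsf2 (chromosome 11, 94557102 to 94601786), a mitochondrial acyl-CoA synthetase family member, with 1.92, 1.46 and 2.1 FPKM in active livers, against 24.5 to 43.5 FPKM (median 29.5) in controls. Every active library was far below every control, with a gap of 3.27 log2 units (log2 difference -3.75 ± 0.10, limma adjusted p = 2.59e-09).

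The promoters of these 2 genes are shown because, apart from the AMPK genes, they had the widest gap on each side. Each runs from 250 bases before the start of the gene to 50 after, as listed by RefSeq for GRCm38.p6, and that start equals the start of the deposited gene model. Muc13 lies on the plus strand (chr16:33793787-33794086) and Acsf2 on the minus strand (chr11:94601737-94602036), both printed 5′ to 3′ on the strand of the gene with no motif marked.
Muc13: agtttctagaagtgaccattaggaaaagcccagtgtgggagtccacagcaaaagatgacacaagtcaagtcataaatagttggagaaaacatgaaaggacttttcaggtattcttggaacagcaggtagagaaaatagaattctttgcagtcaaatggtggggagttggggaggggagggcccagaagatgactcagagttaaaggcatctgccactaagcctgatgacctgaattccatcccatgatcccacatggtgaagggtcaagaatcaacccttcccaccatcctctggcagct
Acsf2: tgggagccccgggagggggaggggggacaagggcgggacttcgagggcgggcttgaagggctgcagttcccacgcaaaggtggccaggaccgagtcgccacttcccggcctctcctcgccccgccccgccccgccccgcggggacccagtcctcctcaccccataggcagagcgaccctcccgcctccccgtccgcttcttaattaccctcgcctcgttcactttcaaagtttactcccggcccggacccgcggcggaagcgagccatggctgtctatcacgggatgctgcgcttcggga

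**Figure D2:**
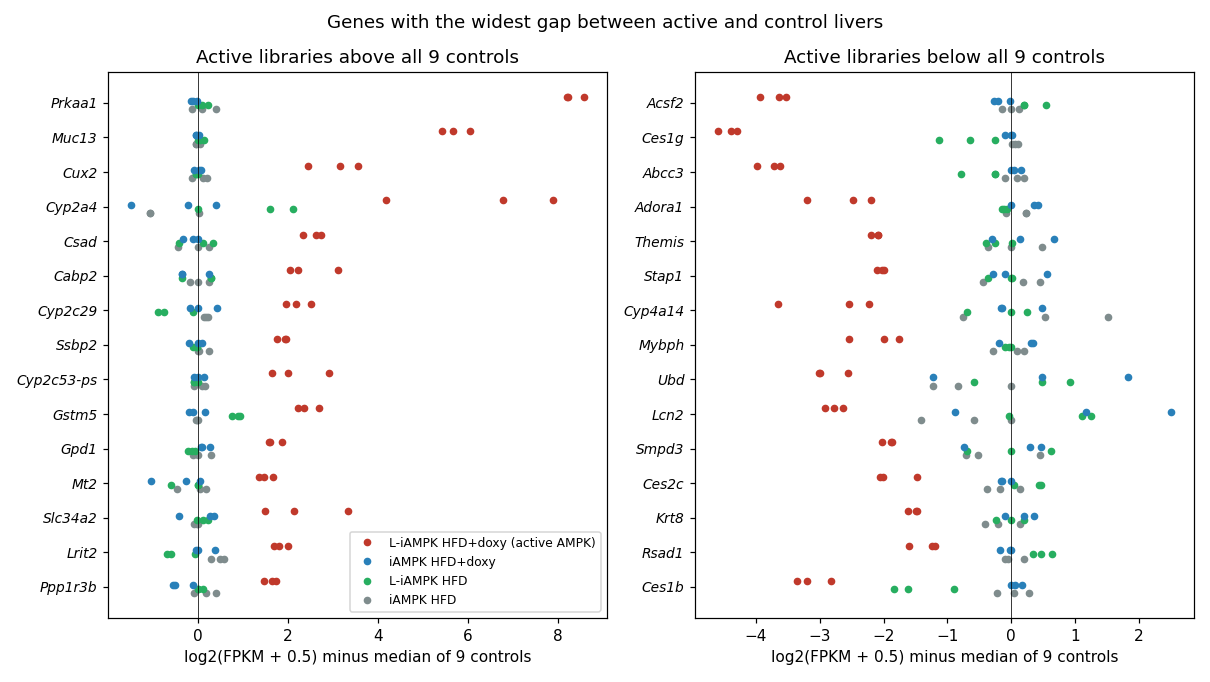
The 15 genes with the widest gap above (left) and below (right) all controls under the rule for named genes, as log2(FPKM + 0.5) minus the median of the 9 controls, 1 point per library. Red points are L-iAMPK HFD+doxy livers and the other colours the 3 control groups; red points stand apart from the others for every gene, while the control points of Gstm5, Lrit2 and Ces1b divide by group.

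Several of the other wide gaps above the controls were in genes with almost no reads in the controls. Cux2, a transcription factor of female mouse liver, had 4.66, 6.29 and 2.63 FPKM in active livers, against 0.0293 to 0.17 FPKM (median 0.0744) in controls (log2 difference 3.04 ± 0.19). Cabp2, a calcium-binding protein gene, was at 2.46, 5.005 and 2.11 FPKM in active livers, against 0 to 0.28 FPKM (median 0.131) in controls (log2 difference 2.47 ± 0.24). Active replicate 2 was the highest library for both genes, and all 3 active libraries were above the controls.

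Slc34a2, a sodium-phosphate cotransporter gene, had 2.54, 6.48 and 1.44 FPKM in active livers, against 0.0158 to 0.386 FPKM (median 0.185) in controls (log2 difference 2.28 ± 0.31). Its active values were far apart from each other and all above every control. Ssbp2, which encodes a single-stranded DNA-binding protein, had 2.69, 2.32 and 2.71 FPKM in active livers, against 0.228 to 0.479 FPKM (median 0.327) in controls, with active libraries close together (log2 difference 1.88 ± 0.10). Lrit2, a leucine-rich repeat gene, had 8.2, 7.63 and 9.59 FPKM in active livers, against 1.06 to 3.26 FPKM (median 2.002) in controls (log2 difference 1.79 ± 0.14, limma adjusted p = 2.10e-05), and its control groups differed from each other (limma F-test, adjusted p = 0.0413).

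Of the 1244 genes above the controls, 39 passed the 0.5 FPKM filter through the active libraries alone, and 24 had no control library at 0.5 FPKM. Muc13, Cux2, Cabp2, Slc34a2, Ssbp2 and Cyp2c53-ps are among these 24. Of the 878 genes below, 75 had no active library at 0.5 FPKM, among them Themis, Smpd3, Ubd, Mmp12, Sprr1a, Rsad1 and Chad. Genes that passed the filter only through the livers where they were high had to differ, so the named ones are given by their levels and log2 difference, with no p.

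Below the controls, Ces1g, a carboxylesterase of lipid and drug hydrolysis, had 4.73, 3.73 and 4.39 FPKM in active livers, against 46.3 to 110.1 FPKM (median 102) in controls (log2 difference -4.21 ± 0.14, limma adjusted p = 1.53e-08). The L-iAMPK HFD livers were the lowest controls and still lay far above the active ones. Abcc3, the basolateral exporter of bile salts and glucuronides, had 3.38, 4.49 and 4.21 FPKM in active livers, against 35.2 to 70.03 FPKM (median 61.1) in controls (log2 difference -3.67 ± 0.12, limma adjusted p = 1.04e-08). Adora1, the adenosine A1 receptor, had 0.997, 2.52 and 1.97 FPKM in active livers, against 12 to 17.9 FPKM (median 13.3) in controls, with the active libraries several-fold below the lowest control (log2 difference -2.72 ± 0.18, limma adjusted p = 1.12e-05). The model of Mybph, a myosin-binding protein gene, overlaps that of Adora1 on the opposite strand, and no source used here says if strand was used in counting. Mybph had 0.258, 0.795 and 0.603 FPKM in active livers, against 3.1 to 5.1 FPKM (median 3.9) in controls, also without overlap (log2 difference -2.14 ± 0.17, limma adjusted p = 2.36e-05).

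Themis, a signalling protein of developing T cells, had 0.018, 0.0606 and 0.0616 FPKM in active livers, against 1.32 to 3.3 FPKM (median 1.89) in controls (log2 difference -2.13 ± 0.20). Stap1, an adaptor of immune receptor signalling, had 1.07, 1.15 and 1.19 FPKM in active livers, against 4.41 to 9.4 FPKM (median 6.19) in controls (log2 difference -2.04 ± 0.20, limma adjusted p = 0.00013). For both genes the active libraries were close together and far under the lowest control. Smpd3, a neutral sphingomyelinase, was at 0.219, 0.289 and 0.294 FPKM in active livers, against 1.25 to 3.98 FPKM (median 2.41) in controls, again with no overlap (log2 difference -1.83 ± 0.33).

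The lists of fatty acid and triglyceride synthesis and of glucose handling had more members called higher than lower. Those of cholesterol synthesis and fatty acid oxidation had more called lower. Over all genes tested, 13.7% were called higher and 11.3% lower. Of 24 tested genes of fatty acid and triglyceride synthesis, 6 were called higher and 2 lower, with a median log2 difference of 0.38, against 0.01 over all genes tested, and 5 lay above all controls. Relative to iAMPK HFD+doxy 6 were higher and 0 lower (median 0.44), to L-iAMPK HFD 6 and 4 (median 0.12), and to iAMPK HFD 6 and 1 (median 0.30). FPKM as deposited gave 6 higher and 4 lower. The list's summed level overlapped, at 7325 to 11143 FPKM in active livers and 2353 to 9141 FPKM in controls. Thrsp, the lipogenic thyroid hormone-responsive protein Spot14, had 1555, 1126 and 1092 FPKM in active livers, against 186 to 596 FPKM (median 298) in controls. Every active value was well above the highest control (log2 difference 1.95 ± 0.18, limma adjusted p = 5.87e-05). Mlxipl, which encodes the carbohydrate response factor ChREBP, had 106, 127 and 109 FPKM in active livers, against 60.8 to 94.2 FPKM (median 73) in controls (log2 difference 0.63 ± 0.10, limma adjusted p = 0.00146). Dgat2, which catalyses the last step of triglyceride synthesis, had 426, 419 and 401 FPKM in active livers, against 189 to 315 FPKM (median 279) in controls (log2 difference 0.67 ± 0.11, limma adjusted p = 0.00208), and Agpat2, an acyltransferase earlier in that route, had 174, 171 and 158 FPKM in active livers, against 105 to 142 FPKM (median 122) in controls (log2 difference 0.45 ± 0.07, limma adjusted p = 0.00131). None of these 4 genes overlapped.

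Of 22 tested genes of gluconeogenesis and glucose handling, 8 were higher and 2 lower, with a median log2 difference of 0.22, and the 8 higher genes all lay above every control. Gpd1, the cytosolic glycerol-3-phosphate dehydrogenase that links glycolysis to glycerol, had 553, 461 and 452 FPKM in active livers, against 129.8 to 187 FPKM (median 151) in controls. The active libraries stood well clear of the highest control (log2 difference 1.66 ± 0.10, limma adjusted p = 3.60e-06). Ppp1r3b, the liver subunit that targets protein phosphatase 1 to glycogen, had 162, 153 and 135 FPKM in active livers, against 33 to 64.9 FPKM (median 48.6) in controls (log2 difference 1.67 ± 0.11, limma adjusted p = 1.05e-05). Khk, ketohexokinase of fructose metabolism, had 589, 827 and 593 FPKM in active livers, against 257 to 385 FPKM (median 321) in controls (log2 difference 1.02 ± 0.13, limma adjusted p = 0.000435). G6pc, the glucose-6-phosphatase catalytic subunit, had 262, 299.7 and 281 FPKM in active livers, against 71.8 to 181 FPKM (median 137) in controls (log2 difference 1.25 ± 0.29, limma adjusted p = 0.0115). In all 4 genes the controls stayed under the active livers.

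Pck1, the gluconeogenic phosphoenolpyruvate carboxykinase, had 1620.0, 871 and 1014 FPKM in active livers, against 299 to 1058 FPKM (median 506) in controls. Its groups overlapped, active replicate 1 was the highest library, and it did not pass the threshold (log2 difference 1.08 ± 0.38, limma adjusted p = 0.0597). It passed with limma array weights and with edgeR on recovered reads (adjusted p = 0.0388 and 0.0395). With limma it also passed with 2 group means (adjusted p = 0.0487), without iAMPK HFD replicate 3 (0.0327) and without L-iAMPK HFD replicate 3 (0.0290).

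Cholesterol synthesis and uptake had 8 of 25 tested genes lower and 0 higher, with a median log2 difference of -0.50, and 3 lay below all controls. Msmo1, a sterol C4-methyl oxidase, had 41.6, 33.6 and 43.2 FPKM in active livers, against 55.2 to 131 FPKM (median 78.5) in controls (log2 difference -1.01 ± 0.20, limma adjusted p = 0.00572). Mvk, mevalonate kinase, had 5.85, 5.33 and 5.49 FPKM in active livers, against 7.52 to 17.1 FPKM (median 10.8) in controls (log2 difference -0.90 ± 0.12, limma adjusted p = 0.000583). The active libraries were the lowest of all for both genes. The control groups of Mvk differed from each other (limma F-test, adjusted p = 0.0388). They averaged 10.5 FPKM in iAMPK HFD+doxy, 14.8 FPKM in L-iAMPK HFD and 8.20 FPKM in iAMPK HFD livers. Against each control group the list's median was -0.40 (iAMPK HFD+doxy), -0.84 (L-iAMPK HFD) and -0.19 (iAMPK HFD), with 3, 15 and 2 members lower and 1, 0 and 1 higher.

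Fatty acid oxidation and ketogenesis had 11 of 30 tested genes lower and 0 higher with limma, 7 of them below all controls, while edgeR on recovered reads called 9 lower and 1 higher. The median log2 difference was -0.15. By control group, 6 members were lower and 2 higher than in iAMPK HFD+doxy, 14 and 0 than in L-iAMPK HFD, and 8 and 0 than in iAMPK HFD. Cyp4a14, a fatty acid ω-hydroxylase and PPARα target, had 22.6, 18.1 and 8.08 FPKM in active livers, against 63.8 to 308 FPKM (median 108) in controls. Its active livers varied and stayed below every control (log2 difference -2.92 ± 0.44, limma adjusted p = 0.00168). Bdh1, which interconverts the ketone bodies, had 70.6, 93.6 and 86.8 FPKM in active livers, against 111 to 139 FPKM (median 131) in controls (log2 difference -0.61 ± 0.09, limma adjusted p = 0.000824). Acat1, a mitochondrial acetyl-CoA acetyltransferase, had 139, 147 and 142 FPKM in active livers, against 166 to 193 FPKM (median 182) in controls (log2 difference -0.34 ± 0.06, limma adjusted p = 0.00252). All 3 genes were lower in every active library than in any control.

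Lipid droplet and lipase genes were lower in 6 of 20 tested and higher in 1, against 11.3% and 13.7% of all genes tested. Their median log2 difference was -0.25. The lower members numbered 3 relative to iAMPK HFD+doxy, 7 relative to L-iAMPK HFD and 2 relative to iAMPK HFD. Cidec, which fuses lipid droplets, had 3.54, 1.86 and 1.66 FPKM in active livers, against 3.72 to 39 FPKM (median 22.1) in controls. The active livers lay below all controls, the lowest of which was close to them (log2 difference -2.59 ± 0.65, limma adjusted p = 0.0178), and without active replicate 2 or 3 the adjusted p was 0.0641 or 0.0708. Lipe, hormone-sensitive lipase, had 6.43, 5.36 and 5.44 FPKM in active livers, against 6.9 to 11.6 FPKM (median 9.88) in controls (log2 difference -0.72 ± 0.13, limma adjusted p = 0.00319).

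**Figure D3:**
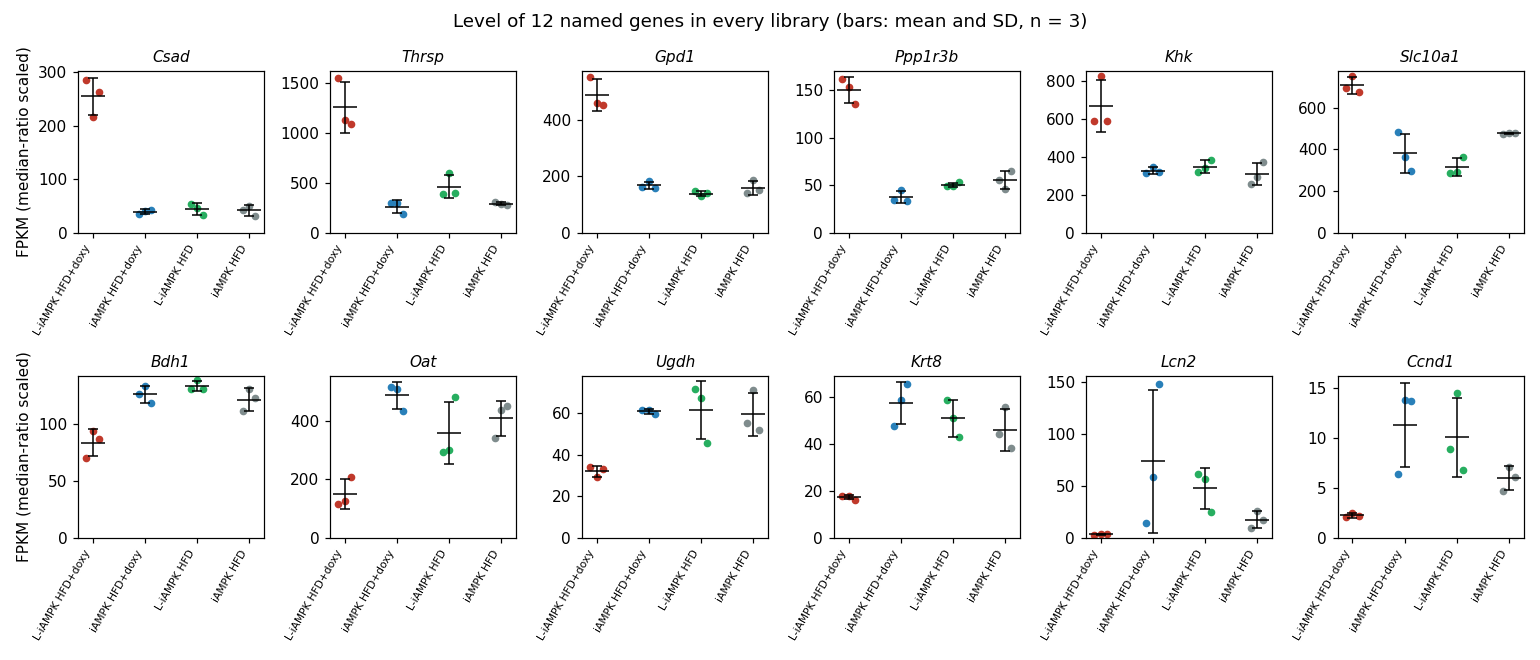
Median-ratio scaled FPKM (vertical axis, from 0) of 12 named genes in each of the 12 livers, with L-iAMPK HFD+doxy at the left of each panel, and bars for the mean and SD of 3 libraries. In the first 6 panels (Csad to Slc10a1) the active livers lie above every control and in the other 6 (Bdh1 to Ccnd1) below every control.

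Bile acid and taurine genes moved in both directions: 6 of 24 tested were higher and 5 lower, against 13.7% and 11.3% of all genes tested. The list's median was 0.11, while FPKM as deposited gave 4 higher and 7 lower with a median of 0.00. Relative to iAMPK HFD+doxy 2 were higher and 5 lower, relative to L-iAMPK HFD 7 and 3, and relative to iAMPK HFD 4 and 6. Csad, the cysteine sulfinate decarboxylase of taurine synthesis, had 285, 216 and 262 FPKM in active livers, against 31.2 to 53.4 FPKM (median 42.2) in controls. The lowest active library was several times the highest control (log2 difference 2.62 ± 0.17, limma adjusted p = 9.05e-06). Slc10a1, the basolateral bile acid uptake transporter NTCP, had 696, 755 and 675 FPKM in active livers, against 285 to 485 FPKM (median 364) in controls (log2 difference 0.89 ± 0.13, limma adjusted p = 0.000881). Abcb4, the canalicular phospholipid transporter, had 60.003, 48.8 and 55.9 FPKM in active livers, against 72.1 to 86.7 FPKM (median 79.9) in controls (log2 difference -0.54 ± 0.08, limma adjusted p = 0.000808). Slc10a1 lay above all controls and Abcb4 below.

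Xenobiotic metabolism divided within gene families. Of 25 tested genes, 5 were higher and 8 lower, against 13.7% and 11.3% of all genes tested. The median log2 difference of the list was -0.27. Cyp2a4, a steroid hydroxylase higher in female mice, had 32.4, 426 and 197 FPKM in active livers, against 0.152 to 7.39 FPKM (median 1.31) in controls. Active replicate 1 was far below the other 2 active livers and still above every control (log2 difference 6.24 ± 0.74, limma adjusted p = 0.000439). Cyp2c29, a cytochrome P450 induced through the nuclear receptor CAR, had 1009, 1479 and 1189 FPKM in active livers, against 140.0 to 348 FPKM (median 259) in controls (log2 difference 2.32 ± 0.18, limma adjusted p = 2.10e-05), whereas its family member Cyp2c37 had 24.2, 26.2 and 25.8 FPKM in active livers, against 52.4 to 119.9 FPKM (median 72.1) in controls (log2 difference -1.57 ± 0.21, limma adjusted p = 0.00072). The pseudogene Cyp2c53-ps had 1.64, 3.51 and 1.17 FPKM in active livers, against 0 to 0.0939 FPKM (median 0.0315) in controls (log2 difference 2.18 ± 0.21).

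The carboxylesterases also divided by direction, since Ces1d and Ces1f of the same list were called higher. Ces1b had 3.22, 2.83 and 4.34 FPKM in active livers, against 9.11 to 41.1 FPKM (median 33.7) in controls (log2 difference -2.68 ± 0.18, limma adjusted p = 1.78e-05). Its controls averaged 35.6 ± 2.18 FPKM in iAMPK HFD+doxy, 12.6 ± 4.69 FPKM in L-iAMPK HFD and 35 ± 6.12 FPKM in iAMPK HFD livers (SD, n = 3 each), with an F-test adjusted p of 0.0139 (limma). Ces2c, of another carboxylesterase subfamily, had 0.888, 0.94 and 1.58 FPKM in active livers, against 3.95 to 7.48 FPKM (median 5.3) in controls and was below every control (log2 difference -1.88 ± 0.14, limma adjusted p = 2.10e-05). The Cyp2a, Cyp2c, Ces1, glutathione S-transferase, Saa and Mup families hold near-identical copies, and no source used here says how the authors' counting divided shared reads, so their single values are uncertain.

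Antioxidant genes under the factor NRF2 were lower more often than higher: 9 of 22 tested were lower and 2 higher, 6 lay below all controls and none above, and the median log2 difference was -0.33. Ugdh, which makes UDP-glucuronate, had 34.1, 29.1 and 33 FPKM in active livers, against 45.7 to 71.8 FPKM (median 61.6) in controls (log2 difference -0.90 ± 0.13, limma adjusted p = 0.000991). Gstm1, a glutathione S-transferase, had 181, 177 and 191 FPKM in active livers, against 245 to 412 FPKM (median 373) in controls (log2 difference -0.93 ± 0.14, limma adjusted p = 0.00144). In both, the active libraries were lower than every control. Gsta4, which clears lipid peroxidation products, had 16.4, 14.4 and 18.8 FPKM in active livers, against 24 to 40.8 FPKM (median 32.5) in controls (log2 difference -0.93 ± 0.12, limma adjusted p = 0.000622), and Gsta2 had 2.11, 1.45 and 1.73 FPKM in active livers, against 3.58 to 10.4 FPKM (median 6.64) in controls (log2 difference -1.64 ± 0.25, limma adjusted p = 0.00176).

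Gstm5, outside that list, went the other way, with 49.5, 62.5 and 45 FPKM in active livers, against 7.99 to 18.1 FPKM (median 9.16) in controls (log2 difference 2.17 ± 0.10, limma adjusted p = 2.56e-07). Its controls averaged 8.95 ± 1.22 FPKM in iAMPK HFD+doxy, 17.2 ± 1.14 FPKM in L-iAMPK HFD and 9.08 ± 0.0995 FPKM in iAMPK HFD livers (SD, n = 3 each), so the L-iAMPK HFD livers were the highest controls (limma F-test, adjusted p = 0.00844). The active livers were above these as well.

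The 24 acute-phase genes tested included 6 higher and 5 lower, against 13.7% and 11.3% of all genes tested. Their median log2 difference was -0.18 despite the larger count of increases. Fgb, Mt1 and Mt2 were among those higher, and Lcn2 and Saa2 among those lower. Fgb, fibrinogen β, also in the hepatocyte list, had 4074, 4849 and 4408 FPKM in active livers, against 1618 to 2717 FPKM (median 1925) in controls (log2 difference 1.19 ± 0.14, limma adjusted p = 0.000255). Lcn2, which binds bacterial iron carriers, had 2.998, 3.73 and 3.34 FPKM in active livers, against 9.39 to 148 FPKM (median 25.8) in controls. The controls of Lcn2 spread widely and the active livers lay together below them (log2 difference -3.12 ± 0.59, limma adjusted p = 0.00485). Saa2, a serum amyloid A gene, had 7.69, 11 and 19.2 FPKM in active livers, against 34.4 to 282 FPKM (median 65.7) in controls (log2 difference -2.64 ± 0.46, limma adjusted p = 0.00339).

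Mt2 and Mt1, metallothioneins that bind zinc and copper, are neighbours on chromosome 8. Mt2 had 199.7, 249.5 and 216 FPKM in active livers, against 37.5 to 88.7 FPKM (median 77.6) in controls (log2 difference 1.73 ± 0.23, limma adjusted p = 0.000718). Mt1 had 302, 335 and 307 FPKM in active livers, against 71.2 to 174 FPKM (median 142) in controls (log2 difference 1.27 ± 0.19, limma adjusted p = 0.00113). For both genes all active livers were above the highest control. Their promoters are shown since these neighbours moved together (RefSeq, GRCm38.p6, plus strand, chr8:94172368-94172667 for Mt2 and chr8:94178839-94179138 for Mt1). Capitals mark TGCNCNC on either strand, a pattern looser than the core of the metal response element (TGCRCNC, where R is A or G). Not every marked stretch is therefore that core.
Mt2: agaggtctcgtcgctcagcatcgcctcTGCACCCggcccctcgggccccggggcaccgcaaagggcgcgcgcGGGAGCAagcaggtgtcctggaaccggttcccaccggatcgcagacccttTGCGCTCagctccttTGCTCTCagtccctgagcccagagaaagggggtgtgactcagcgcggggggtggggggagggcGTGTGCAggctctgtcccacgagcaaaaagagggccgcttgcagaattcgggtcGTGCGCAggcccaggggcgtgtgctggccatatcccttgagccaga
Mt1: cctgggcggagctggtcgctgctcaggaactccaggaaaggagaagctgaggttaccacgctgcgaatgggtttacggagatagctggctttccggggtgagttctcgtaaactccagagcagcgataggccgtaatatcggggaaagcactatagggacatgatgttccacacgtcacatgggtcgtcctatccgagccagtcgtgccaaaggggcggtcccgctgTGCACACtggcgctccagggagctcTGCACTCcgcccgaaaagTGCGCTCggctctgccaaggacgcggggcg

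The Mt2 promoter held 6 matches and the Mt1 promoter 3, and overlapping matches are counted separately. This short, loose pattern, TGCNCNC, was present in 58.0% of 983 promoters of genes above the controls, 62.9% of 671 below and 59.5% of all 9442 tested genes with a 300-base promoter. On both strands, the cyclic AMP response element TGACGTCA was in 4.48% of promoters above, 1.64% below and 3.11% of all. The E-box CACGTG was in 9.87% above, 11.3% below and 10.2% of all, and the sterol element TCACNCCAC in 1.42% above, 1.34% below and 1.12% of all. The CCAAT box was in 36.4% above, 39.9% below and 38.3% of all. These are counts of letters in the windows, and no test was made.

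Interferon response genes were lower in 15 of 26 tested and higher in 0, with a median log2 difference of -0.67, and 9 lay below all controls. Ifih1, the RNA sensor MDA5, had 5.65, 5.63 and 5.91 FPKM in active livers, against 8.37 to 11.5 FPKM (median 9.17) in controls (log2 difference -0.69 ± 0.09, limma adjusted p = 0.00057). Ubd, a ubiquitin-like modifier induced by interferon γ, had 0.252, 0.0466 and 0.0564 FPKM in active livers, against 1.39 to 15.2 FPKM (median 3.92) in controls (log2 difference -2.84 ± 0.55). All active libraries were the lowest for both genes, and the controls of Ubd spread widely. Ifi27l2b had 2.99, 3.71 and 2.26 FPKM in active livers, against 5.06 to 39 FPKM (median 17.2) in controls (log2 difference -2.19 ± 0.46, limma adjusted p = 0.00819), and Xaf1, an apoptosis-associated interferon target, had 1.1, 1.5 and 1.47 FPKM in active livers, against 1.94 to 4.15 FPKM (median 2.52) in controls (log2 difference -0.81 ± 0.17, limma adjusted p = 0.0076). Against iAMPK HFD+doxy, L-iAMPK HFD and iAMPK HFD, 15, 5 and 7 members were lower.

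Integrated stress response genes were higher in 4 of 20 tested and lower in 2, where 13.7% of all genes tested were higher and 11.3% lower. The list's median was -0.13, and FPKM as deposited gave 3 higher and 4 lower. Atf4, its central transcription factor, had 56.1, 62 and 68.4 FPKM in active livers, against 38.8 to 54.1 FPKM (median 44.7) in controls, with the lowest active library just above the controls (log2 difference 0.44 ± 0.08, limma adjusted p = 0.00238). Atf5, a related factor, had 149, 199.8 and 136 FPKM in active livers, against 81.1 to 121 FPKM (median 97.9) in controls (log2 difference 0.71 ± 0.11, limma adjusted p = 0.00152). Psph, the last enzyme of serine synthesis, had 4.12, 5.04 and 3.93 FPKM in active livers, against 2.03 to 3.09 FPKM (median 2.58) in controls (log2 difference 0.65 ± 0.12, limma adjusted p = 0.00369). The mitochondrial protease gene Lonp1 had 43.2, 43.5 and 44.1 FPKM in active livers, against 47.8 to 51.9 FPKM (median 50.5) in controls and was lower (log2 difference -0.21 ± 0.05, limma adjusted p = 0.00776). Of 20 endoplasmic reticulum chaperone genes, 1 was higher (Sel1l) and 1 lower (P4hb) with overlapping libraries, and edgeR called neither (adjusted p = 0.0886 and 0.0590).

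Among 18 pericentral hepatocyte genes, which lie around the central vein, 8 were lower and 0 higher, 6 lay below all controls and the median log2 difference was -0.40. Relative to iAMPK HFD+doxy 8 were lower, to L-iAMPK HFD 3 (with 1 higher) and to iAMPK HFD 6. Rhbg, an ammonium transporter, had 1.46, 2.49 and 2.64 FPKM in active livers, against 5.6 to 13.5 FPKM (median 6.79) in controls (log2 difference -1.60 ± 0.17, limma adjusted p = 0.000173). Oat, ornithine aminotransferase, had 115, 127 and 208 FPKM in active livers, against 292 to 515 FPKM (median 435) in controls (log2 difference -1.50 ± 0.20, limma adjusted p = 0.000601). Both had their active libraries clear of the controls. Aldh1a1, a retinaldehyde dehydrogenase, had 529.5, 469 and 534 FPKM in active livers, against 649 to 852 FPKM (median 706) in controls (log2 difference -0.51 ± 0.09, limma adjusted p = 0.00358).

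Cyp1a2, a pericentral cytochrome P450, had 36.9, 32 and 43 FPKM in active livers, against 45.1 to 196 FPKM (median 82.6) in controls (log2 difference -1.20 ± 0.28, limma adjusted p = 0.0135), and without active replicate 1 or 2 its adjusted p was 0.0536 or 0.0585. Of 17 periportal genes, 0 were called in either direction by limma with median-ratio scaling, with a median of -0.08, and 2 were each higher and lower at an unadjusted p under 0.05. In other settings 2 were lower with FPKM as deposited, and edgeR called 1 higher and 1 lower. Cdh1, E-cadherin, had 0.914, 0.535 and 0.757 FPKM in active livers, against 0.848 to 6.59 FPKM (median 2.41) in controls with overlap (log2 difference -1.48 ± 0.51, limma adjusted p = 0.0569), and it passed with 7 of the alternatives tried, edgeR among them (adjusted p = 0.0328).

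Sex-biased genes gave different pictures against different controls. Of 23 genes higher in male livers, 2 were higher and 5 lower against all controls, where 13.7% and 11.3% of all genes tested were. The median of this list was -0.25. Set against iAMPK HFD+doxy its median was -0.66, with 4 members lower and 0 higher. For iAMPK HFD the median was -1.13, with 8 lower and 0 higher, and for L-iAMPK HFD it was 0.96, with 0 lower and 4 higher. Its summed level ran between 4338 and 6577 FPKM in active livers and between 883 and 12083 FPKM in the controls, so the controls differed widely among themselves. Selenbp2 had 1.4, 0.182 and 0.87 FPKM in active livers, against 2.03 to 153 FPKM (median 10.002) in controls, below all controls (log2 difference -3.44 ± 0.89, limma adjusted p = 0.0207), and lost its call without any 1 active replicate (adjusted p 0.0515 to 0.0857). Bcl6, a transcriptional repressor, had 3.35, 3.23 and 3.37 FPKM in active livers, against 3.47 to 8.62 FPKM (median 5.997) in controls (log2 difference -0.73 ± 0.18, limma adjusted p = 0.015), and also lost it (0.0534 to 0.0572). Of 14 genes higher in female livers, Cyp2a4 and Cux2 were higher and Cyp4a10 lower with limma. The shares of all genes tested were 13.7% and 11.3%. With edgeR, 5 of 15 were higher and 0 lower. The limma median of the female list was 0.15. Taking iAMPK HFD+doxy alone as control it was 0.24, and with iAMPK HFD alone 0.29, each with 2 members higher and 0 lower. With L-iAMPK HFD alone its sign was reversed (-0.29), with 2 higher and 2 lower.

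Since these are bulk tissue samples, fewer cells of a type and less RNA per cell cannot be told apart. The label liver was checked first: Alb, encoding albumin, lay between 27129 and 39485 FPKM in active livers and between 27674 and 38519 FPKM in the controls. The pancreatic gene Prss1 was listed at 0 in all libraries, Ckm reached at most 0.0314 FPKM in active livers and 0.372 FPKM in controls, and Adipoq at most 0.107 FPKM in active livers and 0.0394 FPKM in controls.

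Of 23 hepatocyte markers tested, 10 were higher and 1 lower, with a median of 0.30, whereas quantile normalization gave 6 and 3 with a median of 0.02. Their summed level was 84455 to 98293 FPKM in active livers and 69568 to 88969 FPKM in controls. The higher members numbered 5 relative to iAMPK HFD+doxy, 13 relative to L-iAMPK HFD and 5 relative to iAMPK HFD. Ahsg, the secreted glycoprotein fetuin-A, had 6581, 6560.5 and 6423 FPKM in active livers, against 3187 to 4568 FPKM (median 4009) in controls (log2 difference 0.77 ± 0.11, limma adjusted p = 0.00105). Apoc3, an apolipoprotein, had 5025, 5438 and 5134 FPKM in active livers, against 2635 to 3768 FPKM (median 2962) in controls (log2 difference 0.80 ± 0.12, limma adjusted p = 0.000918). Asgr2, a subunit of the asialoglycoprotein receptor, went down, with 47.5, 46.2 and 47.6 FPKM in active livers, against 69.1 to 136 FPKM (median 109.8) in controls (log2 difference -1.14 ± 0.11, limma adjusted p = 7.92e-05). None of these 3 genes overlapped.

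Extracellular matrix and stellate cell genes were lower in 18 of 32 tested and higher in 0, with a median of -0.52, and 12 lay below all controls. Their summed level was 209 to 226 FPKM in active livers and 233 to 415 FPKM in controls. Lrat, the retinyl ester synthase of stellate cells, had 2.47, 3.3 and 1.93 FPKM in active livers, against 4.04 to 9.19 FPKM (median 6.31) in controls (log2 difference -1.15 ± 0.17, limma adjusted p = 0.00124). Col4a1 and Col4a2, basement membrane collagens that lie head to head on opposite strands, had 3.73, 3.93 and 3.5 FPKM in active livers, against 5.01 to 12.2 FPKM (median 8.28) in controls, and 2.58, 2.9 and 2.37 FPKM in active livers, against 3.85 to 8.29 FPKM (median 5.62) in controls. Both were below all controls (log2 difference -1.04 ± 0.21, limma adjusted p = 0.006; log2 difference -1.004 ± 0.17, limma adjusted p = 0.00209). Col1a2, a chain of type I collagen, had 1.84, 1.82 and 1.64 FPKM in active livers, against 2.6 to 8.51 FPKM (median 5.22) in controls (log2 difference -1.24 ± 0.31, limma adjusted p = 0.0179), and lost its call without any 1 active replicate (adjusted p 0.0550 to 0.0659). Against iAMPK HFD+doxy, L-iAMPK HFD and iAMPK HFD, 9, 18 and 2 members were lower.

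Ductal epithelium genes were lower in 5 of 12 tested and higher in 0, with a median of -0.92, and the summed level of the 12 tested genes was 78.5 to 95.4 FPKM in active livers and 152 to 413 FPKM in controls. By control group, 4 were lower than in iAMPK HFD+doxy, 6 than in L-iAMPK HFD and 3 than in iAMPK HFD. Krt8 and Krt18, keratins that hepatocytes also make, were among its most abundant members. Krt8 had 17.7, 17.9 and 16.2 FPKM in active livers, against 38.2 to 65.5 FPKM (median 50.8) in controls (log2 difference -1.53 ± 0.13, limma adjusted p = 3.56e-05). Krt18 had 34.4, 42.6 and 44.4 FPKM in active livers, against 66.7 to 118 FPKM (median 90.6) in controls (log2 difference -1.14 ± 0.14, limma adjusted p = 0.000368). Krt23, another keratin gene, had 0.337, 0.686 and 0.58 FPKM in active livers, against 1.73 to 4.03 FPKM (median 3.01) in controls (log2 difference -1.68 ± 0.15, limma adjusted p = 4.75e-05). All 3 keratins were lower in every active library. Sprr1a, a cornified envelope gene, had 0.12, 0.223 and 0 FPKM in active livers, against 0.367 to 10.4 FPKM (median 4.01) in controls (log2 difference -2.47 ± 0.55). Defining duct markers were low in all livers without being at 0 in a group: Krt19 lay between 0.144 and 0.917 FPKM in active livers and between 0.451 and 2.33 FPKM in controls, and Epcam between 0.299 and 0.382 FPKM in active livers and between 0.253 and 2.27 FPKM in controls. The part of other cell types in these results was not tested.

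Macrophage and Kupffer cell genes were lower in 3 of 30 tested and higher in 0, with a median of -0.15 and a summed level of 397 to 676 FPKM in active livers and 418 to 1002 FPKM in controls. This share is close to the 11.3% of all genes tested that were lower. By control group, 3 were lower than in iAMPK HFD+doxy (median -0.33) and 4 than in L-iAMPK HFD (median -0.33), while 0 were called relative to iAMPK HFD, with a median of the opposite sign (0.20). Members differed in direction. Clec4f, Vsig4 and Cd163 had medians of 55.0, 26.8 and 7.56 FPKM in active livers, against 54.7, 21.2 and 4.91 FPKM in controls. Cd68 and Lyz2 had medians of 7.63 and 42.8 FPKM in active livers, against 10.8 and 51.7 FPKM in controls. Mmp12, a macrophage elastase, had 0.105, 0.219 and 0.218 FPKM in active livers, against 0.557 to 6.32 FPKM (median 2.31) in controls (log2 difference -1.92 ± 0.42). Clec7a, the β-glucan receptor dectin-1, had 1.8, 2.07 and 2.44 FPKM in active livers, against 3.16 to 9.7 FPKM (median 4.98) in controls (log2 difference -1.13 ± 0.27, limma adjusted p = 0.014), and without active replicate 1 or 2 its adjusted p was 0.0683 or 0.0506. Both were below every control. Sinusoidal endothelial genes were lower in 5 of 19, against 11.3% of all genes tested. Their median was -0.19 and their summed level was 184 to 206 FPKM in active livers and 175 to 227 FPKM in controls. L-iAMPK HFD carried most of that count, with 6 lower relative to it (median -0.26), against 1 relative to iAMPK HFD+doxy (median -0.20) and 1 relative to iAMPK HFD (median -0.06). Stab1, a scavenger receptor, had 6.39, 5.41 and 6.87 FPKM in active livers, against 6.98 to 9.76 FPKM (median 7.98) in controls (log2 difference -0.35 ± 0.10, limma adjusted p = 0.0232), with adjusted p 0.0673 or 0.121 without active replicate 1 or 2. In the same list, Clec4g had a median of 41.9 FPKM in active livers, against 38.2 FPKM in controls, and Pecam1 6.87 FPKM against 8.64 FPKM. Of 8 lymphocyte and neutrophil genes tested, 0 were called by limma, 0 had an unadjusted p under 0.05 and 0 of 14 were called by edgeR, and the median of -0.10 changed sign with quantile normalization (0.02). Of 6 tested genes of red cells, muscle, fat and pancreas, Cfd alone was called (lower). It passed the filter through the controls alone, so no p is given. Its libraries overlapped, at 0 to 0.256 FPKM in active livers, against 0.0454 to 7.09 FPKM (median 1.77) in controls. Cfd was not called by edgeR, nor by limma with 2 group means or without active replicate 2 or 3. Of the 20 listed genes, 10 were at 0 in all active livers and 6 in all controls.

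**Figure D4:**
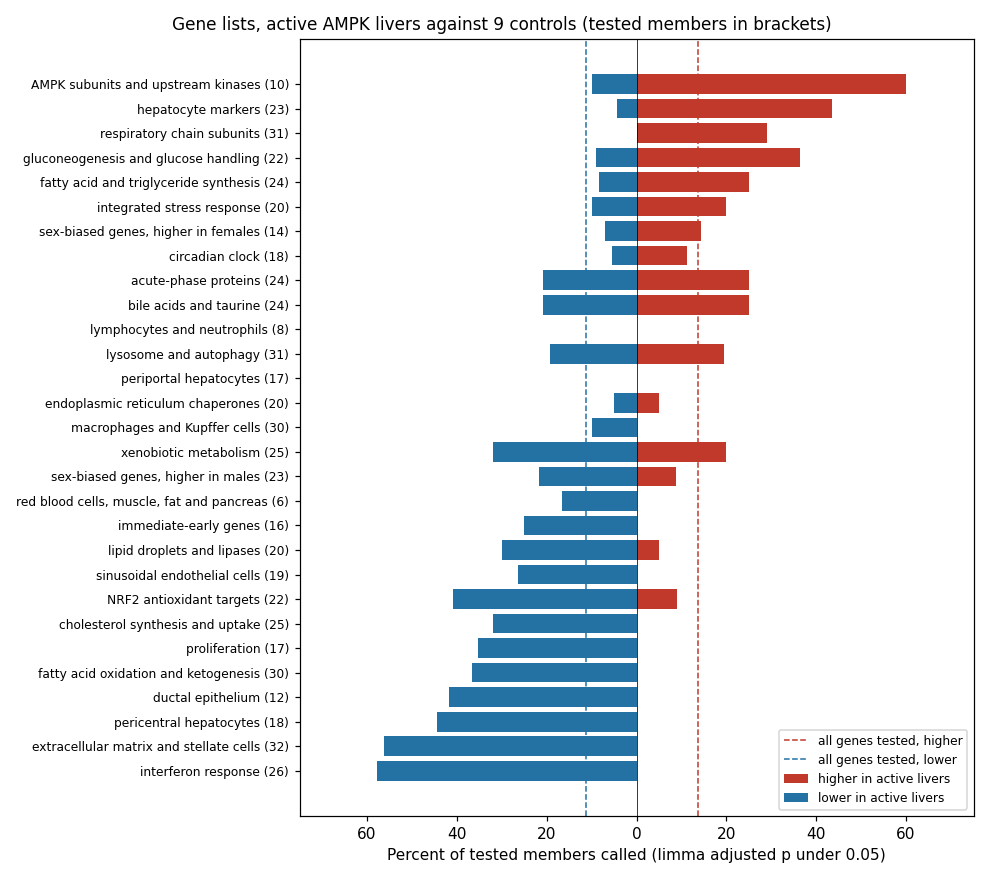
Percent of tested members called higher (red, to the right) or lower (blue, to the left) in active livers than in the 9 controls for 29 gene lists, with the number tested in brackets and dashed lines at 13.7% and 11.3%, the shares of all tested genes. Interferon and extracellular matrix genes stand lowest, with 15 of 26 and 18 of 32 lower, and AMPK subunit and hepatocyte genes highest.

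In the lists with 0 members called higher by limma, 1 member was higher at an unadjusted p under 0.05 for cholesterol synthesis, fatty acid oxidation, proliferation, macrophages and the red cell list, and 2 were for the periportal list. The count was 0 for the interferon, pericentral, immediate-early, matrix, sinusoidal, ductal, and lymphocyte and neutrophil lists. edgeR called 0 higher in these lists apart from 1 gene of fatty acid oxidation and 1 of the periportal list.

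Respiratory chain subunits were higher in 9 of 31 tested and lower in 0 (also 0 at an unadjusted p under 0.05 and with edgeR), with a median of 0.14 and 11 above all controls, while FPKM as deposited gave 6 higher and 2 lower with a median of 0.03. Cox5b, a subunit of cytochrome c oxidase, had 47, 49.7 and 52 FPKM in active livers, against 32.1 to 39 FPKM (median 34.7) in controls (log2 difference 0.49 ± 0.05, limma adjusted p = 0.000203). Ndufb8, a complex I subunit, had 199.8, 204 and 172 FPKM in active livers, against 123 to 161 FPKM (median 144) in controls (log2 difference 0.44 ± 0.07, limma adjusted p = 0.00203). Both genes were above all controls by a narrow margin. Lysosome and autophagy genes were higher in 6 of 31 and lower in 6, where 13.7% of all genes tested were higher and 11.3% lower. With FPKM as deposited these counts were 3 and 7. Ulk1, the kinase that starts autophagy, had 21, 21.2 and 21.2 FPKM in active livers, against 12.2 to 17.8 FPKM (median 15.6) in controls (log2 difference 0.46 ± 0.10, limma adjusted p = 0.00663). Map1lc3a, an autophagosome membrane protein gene, had 51.9, 39.4 and 38.9 FPKM in active livers, against 22.8 to 32.1 FPKM (median 26.1) in controls (log2 difference 0.72 ± 0.10, limma adjusted p = 0.000576). Gaa, lysosomal acid α-glucosidase, had 33.3, 31 and 32.4 FPKM in active livers, against 20.04 to 26.2 FPKM (median 23.3) in controls, also above the controls (log2 difference 0.46 ± 0.07, limma adjusted p = 0.00155).

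Proliferation genes were lower in 6 of 17 tested and higher in 0, with a median of -0.44, where 11.3% of all genes tested were lower. By control group, 4 were lower than in iAMPK HFD+doxy (median -0.48), 11 than in L-iAMPK HFD (median -0.69) and 1 than in iAMPK HFD (median -0.16). Ccnd1, cyclin D1 of the G1 phase, had 2.1, 2.48 and 2.14 FPKM in active livers, against 4.69 to 14.5 FPKM (median 7.1) in controls (log2 difference -1.72 ± 0.25, limma adjusted p = 0.00144). Mcm2, a replicative helicase subunit, had 0.616, 0.653 and 0.701 FPKM in active livers, against 0.89 to 2.17 FPKM (median 1.29) in controls (log2 difference -0.74 ± 0.15, limma adjusted p = 0.00516). In both, the active libraries were the lowest. Tyms, thymidylate synthase, had 0.656, 0.913 and 0.869 FPKM in active livers, against 1.03 to 1.39 FPKM (median 1.16) in controls (log2 difference -0.37 ± 0.09, limma adjusted p = 0.013), with adjusted p 0.0786 without active replicate 1. Immediate-early genes were lower in 4 of 16 and higher in 0, where 11.3% of all genes tested were lower and 13.7% higher. Relative to iAMPK HFD+doxy 3 were lower, to L-iAMPK HFD 5 and to iAMPK HFD 0. Klf6 had 1.99, 2.4 and 2.05 FPKM in active livers, against 2.84 to 7.03 FPKM (median 4.28) in controls (log2 difference -0.94 ± 0.20, limma adjusted p = 0.0073), and Btg2 had 3.37, 2.87 and 3.68 FPKM in active livers, against 4.72 to 13.8 FPKM (median 9.88) in controls (log2 difference -1.16 ± 0.28, limma adjusted p = 0.0156), which without active replicate 1 or 2 was not called (adjusted p 0.0563 or 0.0631). Clock genes were higher in 2 of 18 and lower in 1 with a median of -0.15, beside 13.7% and 11.3% of all genes tested. FPKM as deposited gave 2 and 6 for this list. Clock itself had 8.68, 7.87 and 7.67 FPKM in active livers, against 3.82 to 6.65 FPKM (median 5.38) in controls (log2 difference 0.56 ± 0.09, limma adjusted p = 0.00138).

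Several of the genes below the controls were neighbours on chromosome 11. The labels write the transgene as ColA-AMPKa1(312) without giving its place, and inducible transgenes are often set beside Col1a1, so the tested genes within 1 Mb of Col1a1 (chromosome 11, 94936224 to 94953042, mm10) were counted. Of 29, 11 lay below all controls (37.9%) and 0 above, and 11 were called lower and 2 higher. On the rest of chromosome 11, 76 of 1030 lay below (7.38%) and 102 above (9.90%). The median log2 difference was -0.22 in the window and 0.00 outside it.

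Acsf2 and Abcc3, described above, had the largest differences of the window, at -3.75 and -3.67. Rsad1 (chromosome 11, 94539798 to 94549207), a radical SAM family gene, had 0.498, 0.253 and 0.467 FPKM in active livers, against 1.53 to 3.08 FPKM (median 1.79) in controls (log2 difference -1.50 ± 0.11). Chad, chondroadherin, lies within the Acsf2 model on the opposite strand and had 0.0571, 0.053 and 0.19 FPKM in active livers, against 0.859 to 1.69 FPKM (median 1.36) in controls (log2 difference -1.63 ± 0.13). All 3 active libraries were below the controls for both genes. Against iAMPK HFD+doxy, L-iAMPK HFD and iAMPK HFD, the differences of Acsf2 were -3.53, -4.02 and -3.69 and those of Abcc3 were -3.84, -3.34 and -3.84. Each of the 3 control groups carried the transgene too. The cause of this grouping was not tested.

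**Figure D5:**
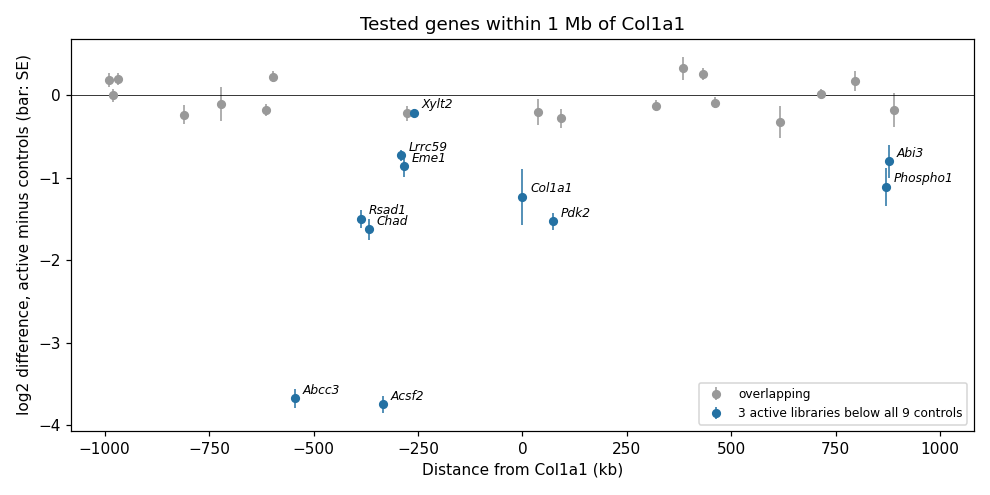
Log2 difference between active livers and 9 controls (vertical axis, bars: SE) against distance from Col1a1 in kb (horizontal axis) for the 29 tested genes within 1 Mb. The 11 blue points have all 3 active libraries below every control; Acsf2 and Abcc3 lie below -3.6, and genes that overlap lie near 0.

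Across the genome, 9.88% of tested genes lay above the controls and 6.98% below. The chromosome with the largest share above was 16 (53 of 407, 13.0%), and the one with the smallest was 18 (21 of 335, 6.27%). For genes below, the shares ran between 3.47% on chromosome 12 (15 of 432) and 8.89% on chromosome 1 (64 of 720). The spread between chromosomes was not tested. Of the genes above, 343 of 1244 (27.6%) had an adjacent tested gene that was also above, and of the genes below 226 of 878 (25.7%) had one that was below. Over all 12587 tested genes, 18.5% had an adjacent gene that was above and 13.3% one that was below, and the difference was not tested.

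The share of genes above the controls was larger at higher expression: 4.05% under 1 FPKM, 8.05% at 1 to 10 FPKM, 14.9% at 10 to 100 FPKM and 16.9% at 100 FPKM or more. For genes below, the same classes gave 5.06%, 7.21%, 7.36% and 7.35%. By transcript length, genes below were 4.56% of those under 1500 bases and 7.91% of those of at least 3000 bases, and genes above were 10.7% and 9.99%.

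The active library nearest to the controls was replicate 1 for 318 genes above, replicate 2 for 407 and replicate 3 for 519. For genes below these numbers were 273, 296 and 309. The control nearest to the active livers came from iAMPK HFD+doxy for 361 genes above and 281 below, from L-iAMPK HFD for 399 and 294, and from iAMPK HFD for 484 and 303, so no control group was the nearest throughout.

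Against the control groups one at a time (limma, adjusted p under 0.05), active livers had 1132 genes higher and 872 lower than iAMPK HFD+doxy (8.99% and 6.93%). They had 1645 higher and 1331 lower than L-iAMPK HFD (13.1% and 10.6%), and 821 and 770 than iAMPK HFD (6.52% and 6.12%). The 3 comparisons share the active libraries. Of the 1244 genes above all controls, 515 were called higher against each group, and of the 878 below, 334 were called lower against each. An F-test among the 3 control groups called 297 genes (2.36%), of which 21 lay above and 21 below. That count rested on single control libraries: it was 8 without L-iAMPK HFD replicate 2, 10 without replicate 1 and 786 without replicate 3.

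In the authors' deposited table, 266 genes had a higher level in active livers at an adjusted p under 0.05 in all 3 comparisons and 344 a lower one. Of these, 263 (98.9%) and 315 (91.6%) lay above and below all controls, which is 21.1% of the genes above and 35.9% of the genes below.

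At the edge of the rule the distances were within a rounding of the levels. Just inside, Anapc5 had 28.8, 25.2 and 25.3 FPKM in active livers, against 20.1 to 25.2 FPKM (median 21.6) in controls, Uba3 had 16, 15 and 15 FPKM in active livers, against 11.9 to 15 FPKM (median 13) in controls, and Slc44a1 had 8.61, 11.7 and 8.69 FPKM in active livers, against 5.18 to 8.61 FPKM (median 7.18) in controls. Just outside, Snf8 had 20.3, 23.6 and 20.7 FPKM in active livers, against 15.2 to 20.3 FPKM (median 17.2) in controls, Plcxd1 had 2.78, 3.49 and 3.11 FPKM in active livers, against 1.88 to 2.78 FPKM (median 2.2) in controls, and Rbm15b had 2.79, 3.18 and 3.15 FPKM in active livers, against 2.02 to 2.79 FPKM (median 2.35) in controls. On the lower side, Glul, Fchsd2 and Prrc1 were just inside, Glul with 227, 199.8 and 248 FPKM in active livers, against 248 to 412 FPKM (median 299) in controls, and Cd74, Irak1 and Klhl13 were just outside, Cd74 with 46.8, 54.6 and 47.7 FPKM in active livers, against 54.6 to 140.4 FPKM (median 75.3) in controls. No test is given for these.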

How the data were processed

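The members and gene lists were chosen with earlier results of these data known. Per the labels' protocols, liver RNA was extracted with a Zymo kit and sequenced as stranded mRNA libraries (TruSeq). The submitters' processing notes name FastQC, STAR 2.4.0k, HOMER, edgeR 3.6.8 and mm10 with no role or order. FPKM values were deposited by the authors with 0.5 added to each, which was subtracted. A second table holds, per gene, a deposited tag signal brought to 1 total in every library, and the log2 fold changes and p-values of the authors' own comparisons, which were used only to count their calls.

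FPKM values were divided by median-ratio size factors (0.924 to 0.958 in active livers, 0.949 to 1.09 in controls). Genes with at least 0.5 FPKM in at least 3 of 12 libraries were fitted as log2(FPKM + 0.5) with limma 3.58.1 in R 4.3.3 (4 group means, trend, robust). Adjusted p-values are Benjamini-Hochberg over all 12587 genes, with a threshold of 0.05. The contrast is L-iAMPK HFD+doxy minus the mean of the 3 control group means. The scaled tags came out as whole reads within 0.02, 13569437 to 20696899 in the 11 libraries tested with edgeR 4.0.16 (quasi-likelihood) as an alternative that had been planned. In iAMPK HFD+doxy replicate 2, 1 read was worth 0.995 scaled tags, so near to 1 that recovery could not be checked in the same way, and that fit lacks this library.

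On data simulated for the contrast over 12587 genes, 67, 67 and 66 genes were changed by log2 0.5, 1 and 2. Of these, 65.7%, 89.6% and 100% were recovered, with 4 false calls. The simulated noise was normal and independent between genes and libraries, and the control groups did not differ. These shares are therefore not error rates of the real contrast, in which far more genes were called.

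Named genes were the AMPK subunit genes, the 15 called genes with the widest gap on each side (mean of at least 1 FPKM), in each of 29 lists up to 4 called genes outside the control range or else the 2 smallest p, the 3 genes just inside and outside the rule on each side, and up to 4 genes near Col1a1. Unnamed gene models, microRNA and snoRNA host symbols were left out, and 2 genes that the rule names are not reported here. Ces1d, Ces1f, Cyp4a10, Krt19, Epcam, Xist, Ddx3y, Clec4f, Vsig4, Cd163, Cd68, Lyz2, Clec4g and Pecam1 were named after their values were seen. Tf, Trac and Ighm of the lists were not matched. RefSeq promoters of 300 bases (GRCm38.p6) matched 9442 tested genes and 100 of the 121 named.

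The alternatives were FPKM as deposited, pseudocounts of 0.1 and 1, quantile normalization, a 2 FPKM filter or none, array weights, a replicate block, no trend, 2 group means, a log2 difference of at least 1, edgeR, and leaving out each library.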

Additional observations from a re-analysis of the deposited data

Results flagged for a closer look

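Among the genes with a wide gap, the 9 controls of Abcc3 had 1 library apart from the others: for L-iAMPK HFD replicate 3, the distance to the nearest control was 0.542 of the whole control range (Dixon limit 0.493). For Muc13, L-iAMPK HFD replicate 2 was apart by 0.541 of the range, among levels close to 0 FPKM. Chance flags about 1 in 20 such groups.

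Among the 30 genes with the widest gaps, the control groups of 3 differed by the limma F-test: Gstm5 (adjusted p = 0.00844), Ces1b (adjusted p = 0.0139) and Lrit2 (adjusted p = 0.0413). The L-iAMPK HFD livers were the highest controls for Gstm5 and the lowest for Ces1b and Lrit2. All 3 active livers lay outside the control range for each of these genes.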

How the results depend on the processing

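Of 115 called named genes, 89 kept their call and direction under every alternative. The 30 genes with the widest gaps, including those that passed the filter through 1 side alone, all did. They were picked as called genes with the widest gap in these same libraries, so this outcome was nearly fixed by the choice and is no support for them. Prkab2, never called, changed sign with FPKM as deposited (-0.052) and with array weights (-0.044), and leaving out 1 library gave -0.016 to 0.058. With FPKM as deposited, 795 genes were higher and 2293 lower against all controls, 498 were higher against iAMPK HFD, 581 against iAMPK HFD+doxy, and 600 were higher and 2659 lower against L-iAMPK HFD; 529 lay above all controls and 1541 below. Array weights called 2184 lower. With a log2 difference of at least 1 as well, 84 were higher and 166 lower, and with a gap of at least 0.5, 55 lay above and 65 below.

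Leaving out 1 library gave 933 to 1928 genes higher and 721 to 1634 lower against all controls, 484 to 981 and 434 to 934 against iAMPK HFD, 617 to 1315 and 458 to 1111 against iAMPK HFD+doxy, and 905 to 1865 and 620 to 1528 against L-iAMPK HFD. The F-test among controls called 8 to 786. The genes above all controls numbered 1261 to 1677 and those below 892 to 1195, as fewer libraries have to be passed. The cause of the other changes was not tested.

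The replicate numbers share only a label: correlations of deviations were -0.284 to 0.441 for the same number and -0.299 to 0.350 for others, and 5 of 12 libraries correlated best with their own number. With the replicate block, 1599 genes were higher and 1336 lower, and 2781 of the 3136 calls were also made. Of 1334 list counts under alternatives, 1138 stayed within 1.5 times. With 3 libraries a group, genes of low FPKM have the widest error.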
